A study of Xenopus tropicalis with 12 samples.

Results

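The 300 gene IDs described here are those of Xenopus tropicalis animal caps (ACs) whose read pairs lay mostly on the strand opposite to the annotated gene in the control libraries. Antisense and sense counts were summed over the 6 LacZ and CoMo libraries. An ID entered the set when it had at least 100 antisense counts and more antisense than sense counts. This held for 942 of 34177 IDs, and the 300 with the largest antisense sums were kept. The members were thus chosen by their antisense and sense counts in the LacZ and CoMo libraries, and their strand bias there is a description and not a result.

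An AC is an explant of prospective ectoderm that develops in culture into a ciliated, mucus-secreting epidermis. All 12 libraries came from ACs at stage NF16, with 3 replicates in each of 4 groups. The hRescue group received morpholinos against both Suv4-20H enzymes (Suv4-20H1/2 knockdown) together with human Phf8 mRNA, and the hPhf8 group received human Phf8 mRNA without a morpholino. LacZ explants were injected with LacZ mRNA, which codes for a bacterial enzyme, without a morpholino, and the CoMo group received a control morpholino without mRNA. SUV4-20H enzymes add the higher methyl states to histone H4 lysine 20, PHF8 removes the monomethyl mark, and a morpholino is an oligonucleotide that here blocks translation. About 30 explants were pooled for each RNA sample. A group with the Suv4-20H morpholinos but without Phf8 mRNA was not analysed here, so the effect of Phf8 mRNA within the knockdown was not measured.

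In a directional RNA library, the strand of a read pair tells from which DNA strand the RNA was copied. Counts opposite to a gene arise where an overlapping or neighbouring gene is read from the other strand, where a separate antisense RNA is made, or where the strand of a gene model is set the wrong way. A counter that ignores strand calls a pair ambiguous when it meets genes on both strands, while a strand-aware counter assigns it to the gene on its own strand and, in the opposite setting, to the other gene.

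The libraries held 2204210 to 35584520 sense counts. Antisense counts made up 2.34% to 4.15% of the strand counts in 11 libraries and 23.5% in hPhf8 replicate 2. That library stood apart. Only 8.87% of its read pairs were assigned to genes on the sense strand, 36.0% mapped to several places, 31.1% did not map, and 284 of the 300 members had an antisense count in it. Results that rest on it are given with and without it. The hRescue libraries also differed from the other groups in marker genes, which were matched by symbol and given here as summed CPM (counts scaled to the effective sense library size). For 7 of 12 multiciliated cell (MCC) markers the sum was 342 to 470.0 CPM in hRescue, 797 to 1526 in hPhf8, 888 to 2051 in LacZ and 1022 to 1704 in CoMo. For 8 of 17 epidermal markers the ranges were 3169 to 4140, 3694 to 4597, 5253 to 5671 and 4287 to 5135 CPM in the same order of groups. This sum joined genes that went opposite ways. In hRescue and hPhf8, tp63 had 55.7 to 133 and 717 to 1086 CPM, and epcam 1610 to 2373 and 1016 to 1333 CPM. Like tp63, krt19, tfap2a, itln1 and itln2 were lower in every hRescue than in every hPhf8 library, while dlx3 and cdh1 overlapped. The 2 matched endodermal markers, mainly sox17a, summed to 25.7 to 70.9 CPM in hRescue, 2.48 to 15.0 in hPhf8, 0.563 to 6.51 in LacZ and 1.42 to 5.43 in CoMo.

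The members held 75.3% of all antisense counts in the controls and 0.105% of the sense counts. Their antisense sums ran from 798 to 633085 counts with a median of 2201.5, and the median sense sum was 16.5 counts. For 167 members the antisense sum was over 100 times the sense sum, for 224 over 10 times and for 32 less than 2 times, and 36 members had no sense count in any control library. A single ID, gene14135, held 19.2% of all antisense counts in the controls, gene10137 held 8.38%, and the next 10 members together held 12.9%. The members closest to equal sums were gene1161 with 9036 antisense and 8963 sense counts and gene6528 with 2412 and 2368. Just outside lay gene7371 with 4302 and 4324 counts and gene6789 (bccip) with 3170 and 3215. The last member, gene23081 (slc5a10), had 798 antisense counts, and the first candidate beyond the limit of 300, gene21427, had 796.

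**Figure D1:**
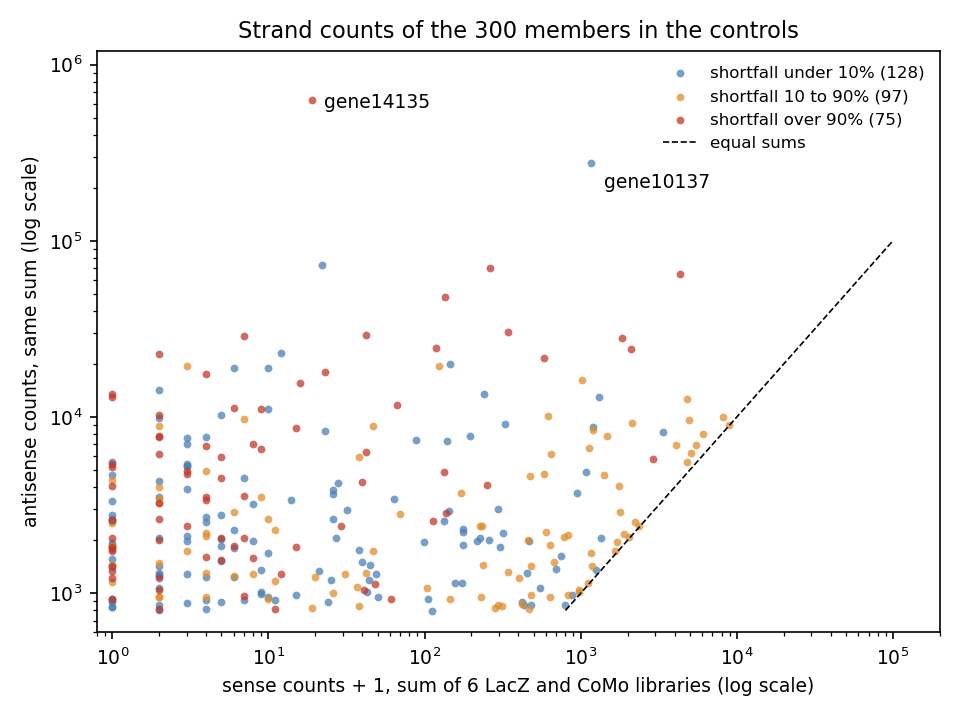
Each point is 1 of the 300 members, with its sense counts plus 1 on the x axis and its antisense counts on the y axis, both summed over the 6 LacZ and CoMo libraries on log scales. Colours give the share of counts lost when strand is ignored, and gene14135 (633085 antisense counts) and gene10137 (275527) lie far above the other members.

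The unstranded counts, which the choice of members did not use, separated the members into kinds. When a pair meets genes on both strands it is missing from the unstranded count, so the shortfall of that count against the sum of both strands measures overlap with a feature on the opposite strand. The shortfall was over 90% for 75 members (25.0%), 10% to 90% for 97 and under 10% for 128 (42.7%), with a median of 42.5%. Among the 996 other IDs with at least 100 antisense counts, 0.602% had a shortfall over 90% and 83.7% under 10%, with a median of 0%. The 642 candidates beyond the limit lay between, with 70 over 90%, 97 in the middle class and 475 under 10%. The shortfall is a share of the counts of both strands, and the 996 other IDs do not have more antisense than sense counts by rule. Shared antisense pairs alone could thus not bring them above 90%, and part of the contrast with them is built into the rule. These groups were compared as counts and no test was run.

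For 170 members a single partner ID was found whose shortfall was the same number of pairs in all 12 libraries (115 members) or within 2.5% of it in sum (55 members). Equal shortfall means that the same read pairs were taken from both IDs. All 170 partners were different IDs, none was a member, and all 170 had more sense than antisense counts in the controls, with a median antisense share of 0.129%. In 68 of the 75 members with a shortfall over 90% a partner was found, against 89 of 97 in the middle class and 13 of 128 in the lowest. Where the study's tables listed a chromosome or scaffold for both IDs, it was the same in 17 of 17 pairs. Gene names came from these tables, which named 88 members and 84 partners, and the rest are given by ID. The genes named there are those ranked high in the study's own comparisons, so the named members are not a random part of the 300.

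Of the 10 most abundant members, 8 had a partner, and 4 of these partners had a name. gene14135 had 633085 antisense and 18 sense counts in the controls, of which the unstranded column kept 367. Its partner, gene8482, had no name in the tables. gene15735 had 70225 antisense and 263 sense counts, and 0 unstranded, so that every pair also met its partner purb, which encodes a single-stranded DNA and RNA binding protein. For gene7295 (tk1, thymidine kinase) the shortfall was 97.5% and the partner, gene2362, was unnamed. gene12554 (LOC100495602) was paired with tubb4b, a beta tubulin, with 28953 antisense and 6 sense counts. gene2784 (LOC100486003) was paired with h3f3b, which encodes histone H3.3, and gene6506 (nme6, a nucleoside diphosphate kinase family member) with odf3, an outer dense fibre protein gene known from sperm tails. By contrast, gene8810 had 73259 antisense, 21 sense and 73279 unstranded counts, and no annotated feature took any sizeable part of them.

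In the RefSeq table of another assembly (UCB_Xtro_10.0), 50 of the 88 named members were found by symbol and 21 of these overlapped another gene. For 8 of the 11 with a named partner, that partner was an overlapping gene or 1 of the 2 nearest genes, by symbol or listed synonym, as for nme6 with odf3, LOC100485552 with ywhae, lrfn4 with pc.2 and LOC105947016 with pim1. LOC100486003 overlapped h3-3b, another symbol of its partner h3f3b, and was not counted among the 8. The lookup also held for some members without a shortfall. gpx8, a glutathione peroxidase family gene, overlapped cdc20b there, which in Xenopus lies in a locus known for its role in MCC formation, while its shortfall in the present gene models was 0.0139%.

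gene10137 is reported apart. It is listed on scaffold_236, had no partner and a shortfall of 0%. It was counted on the antisense strand 3526, 27570 and 40183 times in hRescue, 20706, 612016 and 135911 times in hPhf8, 13638, 14201 and 43704 times in LacZ, and 98331, 11861 and 93792 times in CoMo. Its sense counts were 13, 200 and 259 in hRescue, 53, 882 and 595 in hPhf8, 30, 108 and 232 in LacZ, and 409, 58 and 330 in CoMo. The replicates of each group differed widely and the 4 groups overlapped. The antisense share of its own counts nevertheless kept within 99.2% to 99.9% over the 12 libraries.

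In hPhf8 replicate 2, gene10137 alone took 90.2% of all antisense counts (Wilson 95% interval 90.1% to 90.3%, which covers counting error only) and 2.46% of all read pairs. Its share of antisense counts was 1.09% to 34.7% in the other 11 libraries. Without it, antisense counts were 2.93% of the strand counts in hPhf8 replicate 2. They were 4.11%, 3.48% and 3.13% in hRescue and 2.30% to 2.48% in the remaining hPhf8, LacZ and CoMo libraries. The 3 hRescue libraries thus lay above all others on this measure. The part of this difference in the medians over all IDs given below was not tested. In CPM the highest library exceeded the lowest by 665 times. The fitted hRescue over hPhf8 change was −4.51 ± 1.03 (log2 ± SE, edgeR adjusted p = 0.00497), and without hPhf8 replicate 2 it was −0.77 with overlapping groups.

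**Figure D2:**
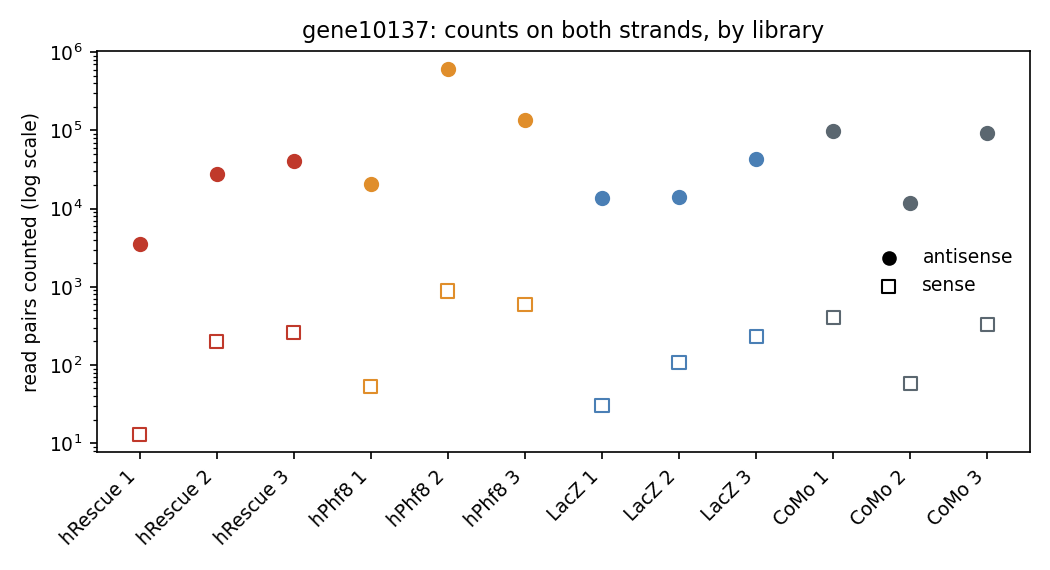
Antisense counts (filled circles) and sense counts (open squares) of gene10137 in each of the 12 libraries, on a log scale, with colours for the 4 groups. Antisense counts reach 612016 in hPhf8 replicate 2 and range from 3526 to 135911 elsewhere, and the sense counts lie over 100-fold lower in every library.

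The antisense levels of the other 299 members were also summed in each library. The sum was 15649 ± 1610 CPM in hRescue, 16461 ± 1804 in hPhf8, 20873 ± 2616 in LacZ and 17537 ± 1872 in CoMo (mean ± SD, n = 3 each). Without gene14135 as well, the sums were 10474 ± 618, 11952 ± 361, 14556 ± 1532 and 12717 ± 1384 CPM in the same order, and the 3 hRescue sums (9974 to 11166) lay below the 3 hPhf8 sums (11635 to 12346). The summed sense level was 1235 ± 91.8 CPM in hRescue, 1150.1 ± 76.2 in hPhf8, 1096 ± 29.5 in LacZ and 1145 ± 50.4 in CoMo. As a median over the members, the antisense share of an ID's pooled counts was 96.8% in hRescue, 99.3% in hPhf8 and 99.4% in each of LacZ and CoMo. The share was over 50% for 278 members in hRescue, 288 in hPhf8 and 295 in each control group. In bulk samples such as these, fewer cells of a type and less RNA per cell cannot be told apart.

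The question of whether the members behave differently in explants with the knockdown was tested between hRescue and hPhf8, since neither group was used to choose them. Of 299 members tested on the antisense strand, 49 were lower and 9 higher in hRescue (edgeR quasi-likelihood test, Benjamini-Hochberg adjusted over all 5375 IDs tested, two-sided, adjusted p under 0.05). Over all IDs tested, 2.87% were lower, 17.9% higher and 20.7% called in either direction. The median log2 fold change was −0.25 over the members and 1.09 over all IDs, as the plot of antisense changes shows. The members are among the most abundant IDs on this strand, and the part of abundance in this difference was not tested. Among the 96 other IDs with at least 798 antisense counts but more sense counts, 14 of 95 tested were lower and 6 higher, with a median of −0.14. These IDs share the lower limit with the members and were not matched to them in abundance. The members were chosen for high counts in the controls, from which hPhf8 differed by medians of −0.30 (LacZ) and −0.15 (CoMo) over the members, and the part of that choice in the direction was not tested.

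**Figure D3:**
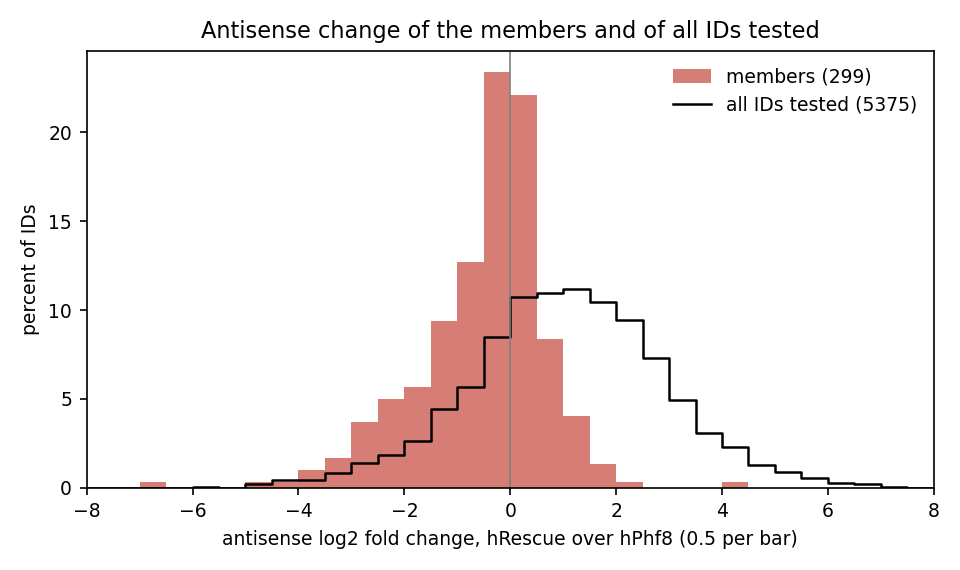
Distribution of the antisense log2 fold change of hRescue over hPhf8 for the 299 members tested (bars) and for all 5375 IDs tested (line), as percent of IDs per 0.5 step. The members centre near 0 (median −0.25) with a tail to lower values, and the full set is centred at 1.09.

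The scale of this test was set by the sense counts. With scaling by the antisense counts themselves, the median over all IDs was 0.30, and the members' calls were 57 lower and 1 higher, against 188 lower and 300 higher over all IDs. All 58 members kept their direction on this scale. Of the 49 lower calls 43 were kept, and of the 9 higher calls 1 was. Without hPhf8 replicate 2 the members' calls were 97 lower and 19 higher of 300, with 3.15% lower and 29.7% higher over all IDs (32.9% in all), and 56 of the 58 calls were kept. The 49 lower members include gene10137. Refitted without it, 53 members were lower and 11 higher of 298, beside 164 and 993 of 5374 IDs. DESeq2 called 39 members lower and 5 higher of 299, beside 138 and 1151 of 5375 IDs.

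nme6 stood out among the abundant members, at the strand of odf3. Its antisense level was 27.3, 26.0 and 57.7 CPM in hRescue and 413, 236 and 236 CPM in hPhf8, against 710.5, 270.1 and 616 CPM in LacZ and 548, 203 and 363 CPM in CoMo. All 3 hRescue libraries lay below all others. The log2 fold change over hPhf8 was −3.03 ± 0.40 (adjusted p = 1.46e-05). Sense counts of nme6 lay within 0.45 to 3.33 CPM, with a log2 change of 0.99 ± 0.63 (edgeR adjusted p = 0.307). Its antisense to sense ratio changed by −4.11 ± 0.83 (edgeR adjusted p = 0.000505). The sense level of odf3 was 31.7, 29.8 and 73.3 CPM in hRescue and 514, 256 and 281 CPM in hPhf8 (log2 fold change −3.00 ± 0.42, adjusted p = 0.00191). Shared pairs were 90.3% of the strand counts of nme6 and 74.7% of those of odf3. In LacZ and CoMo alike, nme6 was lowest in replicate 2 of its group, and so was the sense level of the MCC regulator foxj1. It had 118 CPM against 265 and 367 CPM in LacZ and 124 CPM against 153 and 243 CPM in CoMo. Of the other matched MCC markers, tekt1 and tppp3 were lowest in replicate 3 of CoMo. They had 61.6 and 13.1 CPM there, against 67.9 and 22.5 CPM in replicate 2. The rest were lowest in replicate 2 of both groups, as were tekt1 and tppp3 in LacZ. In hRescue foxj1 had 78.0, 38.9 and 58.0 CPM, whereas nme6 was highest in replicate 3. In hPhf8 foxj1 had 244, 72.6 and 153 CPM, whereas nme6 was about equal in replicates 2 and 3. A relation between nme6 and foxj1 was not tested.

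Further lower members had named partners. gene18107 had 2.18, 1.04 and 1.80 antisense CPM in hRescue and 42.5, 3.52 and 25.4 CPM in hPhf8, with a log2 fold change of −3.87 ± 0.74 (adjusted p = 0.000854). Its partner eml6, a gene of the EMAP family of microtubule-binding proteins, had 20.4, 23.7 and 40.1 sense CPM in hRescue and 389, 161 and 223 CPM in hPhf8. gene25098, paired with the coiled-coil gene ccdc17, had 0.57, 0.35 and 2.695 CPM in hRescue and 12.3, 22.0 and 5.64 CPM in hPhf8 (−3.48 ± 0.80, adjusted p = 0.0051). Among the other lower members, gene21399 was paired with ccdc40, needed for assembly of ciliary inner dynein arms, gene21959 with ccdc33, gene13052 with daam1, a formin, and gene17642 with egfr, the EGF receptor, although only 6.17% of the gene17642 counts were shared. Their changes were −2.15, −2.49, −1.66 and −1.38 on the log2 scale, and these 4 were chosen after their values were seen. The MCC marker sum was lower in the 3 hRescue libraries as well, and its part in these changes was not tested.

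Other lower members shared few of their counts with an opposite feature, or none, with a shortfall of 5.87% for muc2 and under 0.1% for the others described here apart from lrrc17 (26.2%). gpx8 had 31.0, 28.7 and 42.9 antisense CPM in hRescue and 132, 111 and 117 CPM in hPhf8, with non-overlapping groups (−1.84 ± 0.38, adjusted p = 0.00181). gene24684 (LOC108647415) had 5.51, 1.56 and 4.31 CPM in hRescue and 46.0, 45.3 and 33.2 CPM in hPhf8 (−3.47 ± 0.55, adjusted p = 0.00015). For gene33400 (muc2, a gel-forming mucin) the values were 0.34, 0.69 and 4.13 CPM in hRescue and 11.3, 58.9 and 26.9 CPM in hPhf8 (−4.25 ± 0.79, adjusted p = 0.000663). gene18040 (csf2rb, a cytokine receptor subunit) and gene29107 (lrrc17) were lower too, by −3.98 ± 0.93 and −3.13 ± 0.77, and lrrc17 was not called without hRescue replicate 2 (adjusted p = 0.0556). gene21328 had 0.57, 0.52 and 1.08 CPM in hRescue and 13.9, 234 and 11.7 CPM in hPhf8, so that its change of −6.88 ± 0.94 became −4.21 without hPhf8 replicate 2. The muc2 change became −3.60 without that library, and both stayed called. Of the abundant members, gene8810 was also lower (280, 298 and 368 CPM in hRescue, 514, 630.1 and 528 in hPhf8), by −0.85 ± 0.27 (adjusted p = 0.0335), and oip5, a centromere protein gene, by −1.41 ± 0.39 (adjusted p = 0.0188). Leaving out either hRescue replicate 1 or 2, or hPhf8 replicate 1 or 3, ended both of these calls.

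The 9 higher members were led by LOC105948235 (gene23340), on the strand of txnip, which encodes thioredoxin-interacting protein. It had 192, 236 and 138 antisense CPM in hRescue and 8.75, 16.3 and 5.64 CPM in hPhf8, against 6.35 to 8.21 CPM in LacZ and 7.30 to 11.6 CPM in CoMo. The change was 4.21 ± 0.45 (adjusted p = 1.83e-06), and txnip itself rose by 3.82 ± 0.29 on the log2 scale on its sense strand (adjusted p = 0.000212). gene11509, on the strand of the Hes family repressor gene hes3.1, had 104, 74.6 and 55.2 CPM in hRescue and 17.7, 11.9 and 20.3 CPM in hPhf8 (2.19 ± 0.44, adjusted p = 0.0014). gene3270, on the strand of hal.1 (histidine ammonia-lyase), had 88.8, 54.3 and 80.1 CPM in hRescue and 25.8, 15.4 and 21.2 CPM in hPhf8 (1.80 ± 0.42, adjusted p = 0.00614). These 3 were called whichever of the 6 libraries was left out, and of the 9 higher members only LOC105948235 was also called with scaling by the antisense counts.

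For the other higher members the call was lost when single libraries were left out. They were gene341, coq5 (a coenzyme Q methyltransferase), LOC108647927, gene9995 on the strand of epcam (an epithelial adhesion molecule), LOC105947016 on the strand of the kinase gene pim1, and LOC100486003 on the strand of h3f3b. Their changes ran from 0.87 ± 0.29 for LOC100486003 to 1.89 ± 0.58 for gene341. LOC108647927, which had no partner, had 76.6, 97.9 and 101 CPM in hRescue and 26.7, 47.5 and 33.9 CPM in hPhf8. For these members other than LOC100486003, groups without overlap were a condition for being named, so that trait adds no support to their calls.

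**Figure D4:**
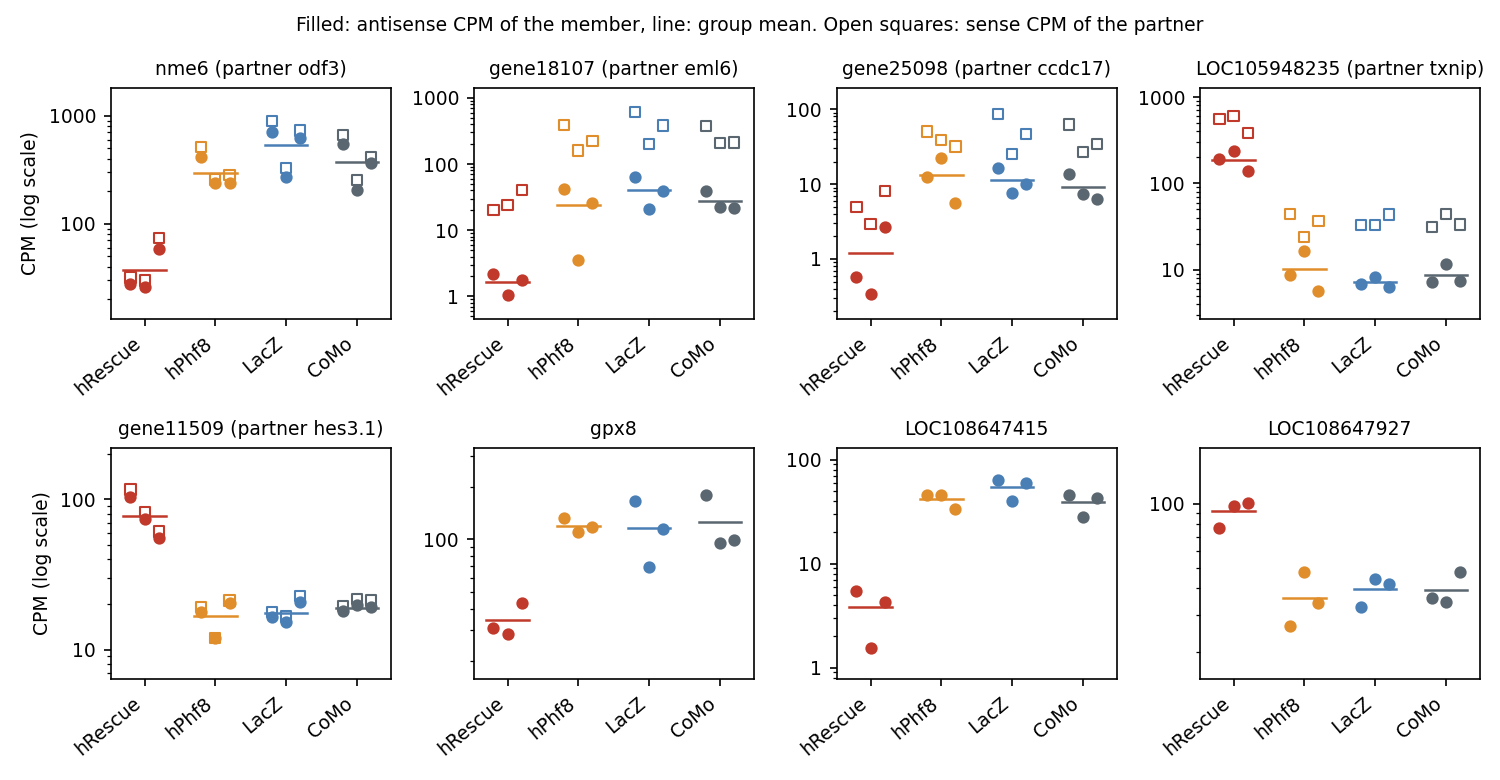
CPM in each library (log scale) for 8 members, with the antisense level of the member as filled circles, its group mean as a line and, where a partner was found, the sense level of the partner as open squares. nme6, gene18107, gene25098, gpx8 and LOC108647415 are lowest in the 3 hRescue libraries, and LOC105948235, gene11509 and LOC108647927 are highest there.

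The abundant members with named symbols were otherwise mostly not called. gene14135 had 3836, 5526 and 6162 CPM in hRescue and 6131, 3124 and 4270.4 CPM in hPhf8, which overlapped (0.17 ± 0.23, adjusted p = 0.627). tk1 (599 to 737 CPM in hRescue, 365 to 571 in hPhf8, adjusted p = 0.162), esco1, a cohesin acetyltransferase gene (90.3 to 127 and 111 to 117 CPM, adjusted p = 0.833), and msh6, a mismatch repair gene (63.8 to 81.6 and 52.8 to 81.3 CPM, adjusted p = 0.891), did not pass the test. Neither did plxnc1, b3gat2 and gprc5a, or c9orf91 on the strand of flna (35.8 to 73.9 CPM in hRescue and 68.6 to 168 CPM in hPhf8, adjusted p = 0.0699), which was called without hPhf8 replicate 2. By class of shortfall, 27 members were lower and 2 higher of 126 tested under 10%, 11 and 4 of 97 in the middle class, and 10 and 3 of 75 over 90%, with gene10137 left out, beside 2.87% lower and 17.9% higher over all IDs. Of the 95 other IDs tested that had at least 798 antisense counts, 14.7% were lower and 6.32% higher, and the classes were not tested against them.

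Members and partners were set side by side. Of 169 pairs tested on both sides, 28 members were called on the antisense strand and 52 partners on the sense strand, beside 20.7% and 20.4% over all IDs. Both were called in 25 pairs, 19 of them lower and 6 higher, and in all 25 the direction was the same. The 2 changes had the same sign in 139 pairs and opposite signs in 30, and in 27 pairs only the partner was called. Shared read pairs enter both values, so the direction is no independent evidence. They made up a median of 83.8% of the strand counts of a member and 19.7% of those of a partner, for example 87.4% for gene18107 and 9.55% for eml6. In 3 pairs only the member was called: coq5, gene8721 and pcdhgc4. pcdhgc4 (gene27516), a clustered protocadherin gene, had a shortfall of only 1.05%, and its partner changed by 0.63 ± 0.84.

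**Figure D5:**
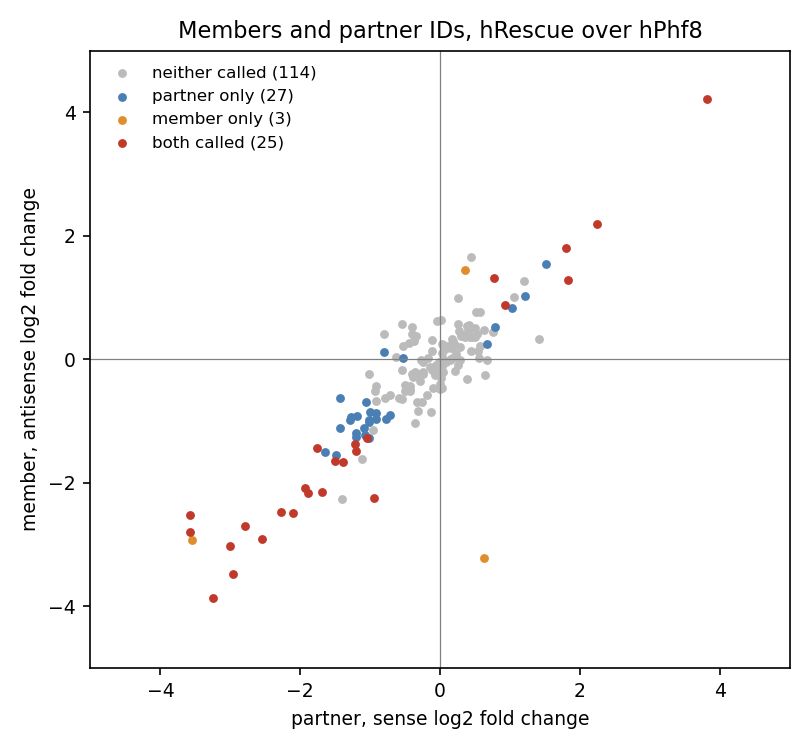
Log2 fold change of hRescue over hPhf8 for 169 pairs, with the sense change of the partner ID on the x axis and the antisense change of the member on the y axis. The 25 pairs in which both were called all lie in the quadrants of equal sign, and each pair has some read pairs in common.

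On the annotated strand few members could be tested. Of the 140 members tested for sense counts, 9 were higher and 5 lower in hRescue, beside 9.16% higher and 11.3% lower of 15783 IDs. akap14, an A-kinase anchoring protein gene, had 7.12, 5.02 and 10.4 sense CPM in hRescue and 51.2, 44.9 and 30.9 CPM in hPhf8 (−2.52 ± 0.35, adjusted p = 0.0019), while its antisense level was 38.6 to 58.5 CPM and 22.4 to 52.7 CPM. The opposite held for esco1, with 87.2, 89.6 and 77.8 sense CPM in hRescue and 33.7, 19.8 and 41.6 CPM in hPhf8 (1.36 ± 0.28, adjusted p = 0.00876). colca2, elovl4 and samd15 were lower on both strands. Without hPhf8 replicate 2 the calls were 25 higher and 19 lower of 163 members, beside 12.9% higher and 17.2% lower over all IDs (30.1% in all).

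The balance of both strands, tested within each library so that scaling drops out, shifted to the sense strand in hRescue. Of 257 members tested, 50 had a lower and 7 a higher antisense to sense ratio, with a median log2 change of −1.22. Only 140 members had enough sense counts for the test of the sense strand, so many of these ratios rest on few sense counts. Over all 5062 IDs tested, 2.65% were lower and 19.6% higher, 22.2% in all, and the median was 1.21. Of the other IDs with at least 798 antisense counts but more sense counts, 95 were tested. Among these, 9.47% were lower and 16.8% higher, with a median of −0.04, beside 19.5% lower and 2.72% higher for the members. Of the 49 members with a lower antisense level, 20 were also lower in strand balance. Both tests use the same antisense counts, and this overlap was not counted over all IDs. The 642 candidates beyond the limit had a median of −1.21. Without hPhf8 replicate 2, 72 members were lower and 9 higher, beside 2.71% lower and 29% higher over all IDs (31.7% in all). The members were chosen for a high ratio in the controls, and the part of that choice in the direction was not tested.

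For the members with the strongest shift, sense counts appeared in hRescue where hPhf8 had none. Choosing the largest changes favours IDs with 0 sense counts in hPhf8, so this contrast is partly built into the choice. pcdhgc4 had 26 antisense and 19 sense counts over the 3 hRescue libraries and 456 and 0 over the 3 hPhf8 libraries (adjusted p = 5.45e-05). In hPhf8 replicate 2 it had 0 counts on both strands. gene12416 had 488 and 21 counts in hRescue and 1289 and 0 in hPhf8, gene15025 on the strand of gng12 463 and 31 against 804 and 0, and gene29866 on the strand of arhgap17 289 and 24 against 747 and 0. gene14409 had 135 and 14 against 418 and 0. All 5 passed the test, and no ratio is given because the sense counts of hPhf8 were 0. Over the LacZ and CoMo libraries, gene14409 had 8 sense counts, gene12416 and gene15025 6 each, and gene29866 and pcdhgc4 1 each. In the other direction, antisense made up 87.5% of the akap14 counts in hRescue and 53.0% in hPhf8 (2.88 ± 0.75, edgeR adjusted p = 0.00558). For ap1g2, a clathrin adaptor subunit gene, it was 83.7% against 37.3% (3.42 ± 0.95, edgeR adjusted p = 0.00886). Its partner by shortfall was zfhx2, which was neither an overlapping gene nor 1 of the 2 nearest genes in the RefSeq lookup. gene3270, gene3556 and gene341 shifted the same way, by 3.93, 2.99 and 3.02.

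The controls were compared with each other to show how far 2 control injections differ on this strand. No ID of 8128 was called between LacZ and CoMo on the antisense strand (0%), with 21 members and 276 IDs at an unadjusted p under 0.05 in edgeR, and 2 and 115 in DESeq2, which called none either. No ID of 7483 was called for strand balance (0%), with 11 members and 213 IDs at an unadjusted p under 0.05. Same-numbered LacZ and CoMo libraries deviated together, and with the replicate number as a block 10 members were called, 9 higher and 1 lower in LacZ, against 31 of 8128 IDs (0.381%, of which 0.197% higher and 0.185% lower). They included c9orf91 (0.59 ± 0.12, adjusted p = 0.00129), gene14135 (0.36 ± 0.08, adjusted p = 0.00167) and nme6 (0.49 ± 0.11, adjusted p = 0.00255). Of the 9, 7 were higher in LacZ in 3 of 3 pairs, and the lower one was gene10137. The p-values of this fit reflect a spread shared over the IDs and not each member's own spread over the 3 pairs. gene32110 was called with log2 changes of 1.45, −0.15 and 1.57 in the 3 pairs, and gene10137 with −2.93, −0.66 and −0.44. These calls are thus weaker than their p-values read. For strand balance the block called no member and 5 IDs (0.0668%). Over the 6 control libraries, a member's highest level exceeded its lowest by a median of 1.67 times. For the 96 other IDs with at least 798 antisense counts it was 1.68 times.

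Against the controls the members are given as a description only, because control counts chose them. The median antisense log2 fold change of 299 members was −0.49 for hRescue over LacZ and −0.38 for hRescue over CoMo, with 102 and 78 members at least 2-fold lower and 7 higher in each. Over all IDs 11.2% and 11.1% were 2-fold lower and 51.5% and 50.7% higher. For hPhf8 the medians were −0.30 over LacZ and −0.15 over CoMo, with 13 and 8 members 2-fold lower and 10 and 9 higher, beside 14.3% and 16.4% lower and 15.3% and 14.7% higher over all IDs. Over all 7193 IDs, the medians were 1.08 and 1.04 for hRescue and −0.11 and −0.14 for hPhf8. The 2 hRescue comparisons share the hRescue libraries, and each control group enters 2 comparisons.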

How the data were processed

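The authors deposited raw counts of read pairs per gene ID for each library, made with STAR 2.7.1a on the X. tropicalis v9.1 genome and Xenbase gene models from 50 bp paired-end, directional, rRNA-depleted libraries. Each file holds unstranded counts and counts for both strand settings. The reverse setting held more counts in every library and was taken as sense, the other as antisense. The entry that pools features without a gene ID and the 4 totals of uncounted pairs were left out. STAR counts only pairs that map to 1 place, so near-identical copies are uncertain.

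Tests used edgeR 4.0.16 in R 4.3.3 (glmQLFit and glmQLFTest) on counts with at least 1 read in 75% of the libraries compared. For strand balance this filter applied to the antisense counts and to both strands summed, and 1 sense count over the libraries was enough. Both strands were scaled by the sense totals with TMM factors of the sense counts, and CPM are on that scale. Strand balance was tested as a strand by group term with a term for each library. Standard errors are the absolute fold change over the square root of the F statistic. The antisense and strand balance tests were checked on counts simulated at the depths of the LacZ and CoMo libraries, with the same spread for every ID. Sense changes and a library as shallow as hPhf8 replicate 2 were not simulated, so the check does not cover them. Same-numbered LacZ and CoMo libraries deviated together on the antisense strand (correlations of 0.53, 0.52 and 0.36 over 2655 IDs), as did the sense counts (0.73, 0.70 and 0.40). For hRescue and hPhf8 the antisense correlations were positive but lower (0.07, 0.13 and 0.17). The labels call the replicates biological but do not say what a number marks.

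No member's antisense counts equalled another ID's sense counts in all 12 libraries, so partners were matched by shortfall, which was decided with the data in view. A partner with equal shortfall needed at least 20 shared pairs. A near partner needed at least 100, with no other ID within 2.5%. Named members were the 10 with the most antisense counts, up to 8 called members in each direction and up to 5 for strand balance, with the largest changes, a mean of at least 20 antisense counts and no overlap between the groups, the 10 most abundant with a gene symbol, and those at the thresholds. Members, lists and tests were chosen with earlier results of these data known. Of the marker lists, 5 of 5 ionocyte, 3 of 7 neural and 0 of 6 mesoderm genes were also matched. Their sums were 282 to 386 CPM (ionocytes) and 43.7 to 104 CPM (neural) in hRescue, and 447 to 1077 CPM and 39.1 to 160 CPM in hPhf8. The neural sum joined genes that went opposite ways. In hRescue and hPhf8, zic1 had 18.7 to 69.4 and 1.72 to 12.1 CPM, and ncam1 4.67 to 13.9 and 24.6 to 95.0 CPM, while elavl3 overlapped. The fold changes and p-values in the study's own tables were not used, nor were promoter, transcript or protein sequences.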

Additional observations from a re-analysis of the deposited data

Results flagged for a closer look

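The entry that pools features lacking a gene ID, used in no comparison, took 53.9% to 60.9% of the feature counts in the hRescue libraries. It took 20.0% to 26.0% in hPhf8 and 16.6% to 31.6% in the LacZ and CoMo libraries. All 3 hRescue libraries therefore lay above all 6 controls. The sense totals that scale the members leave this entry out, and its part in the members' levels was not tested. With 3 libraries a group, single members were not tested for an outlying library within a group.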

How the results depend on the processing

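The counts of called members depended on single libraries, and 3 replicates a group set the precision. Leaving out 1 library at a time, the calls between hRescue and hPhf8 ranged from 26 to 116 members on the antisense strand, from 4 to 44 on the sense strand and from 19 to 81 for strand balance, with the highest number always without hPhf8 replicate 2. Over all IDs they ranged from 439 to 2647, 1576 to 5186 and 426 to 2407. With all 12 libraries in 1 fit, 100 of 299 members were called on the antisense strand (2174 of 7193 IDs). The same fit called 33 of 151 members on the sense strand (4744 of 17215 IDs) and 73 of 273 for strand balance (1857 of 6873 IDs). Without a low-count filter, 32 members were called for strand balance (1667 of 17695 IDs) and 28 on the sense strand (3803 of 23701). On the antisense strand 48 of 300 members were called (2177 of 19835 IDs), and 1 between LacZ and CoMo (9 of 19022). DESeq2 called 28 of 140 members on the sense strand (4474 of 15783 IDs). With scaling by the antisense counts, 488 IDs were called. Without the limit of 300 members the calls were 124 of 885, 36 of 328 and 97 of 705 for antisense, sense and strand balance, beside 20.7%, 20.4% and 22.2% over all IDs. Matching by shortfall gave 170 members with a partner, against 0 with equal counts.

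The labels do not say what a number shared by hRescue and hPhf8 libraries marks. gene31683 had 0 antisense counts in replicate 2 of both groups. The replicate block between hRescue and hPhf8 gave 46 members on the antisense strand (528 IDs), 9 on the sense strand (2825 IDs) and 41 for strand balance (813 IDs). Between LacZ and CoMo it gave 10 members on the antisense strand and changed no call for strand balance among the members.

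Among 44 results for single members under 740 alternatives, 653 kept their direction and side of the threshold, 67 lost the call, 5 gained it and 15 changed sign. No called member changed sign. With scaling by the antisense counts the antisense change was −0.62 for gene14135, −0.26 for tk1 (gene7295), −0.29 for gene70, −0.47 for b3gat2 (gene755) and −0.68 for msh6 (gene3879). For gene32534 it was 0.028 with DESeq2 or its size factors and 0.060 without TMM, and for esco1 (gene4293) 0.0012 without TMM. Leaving out 1 library, gene14135 ranged from −0.072 to 0.46, gene32534 from −0.21 to 0.071 and msh6 from −0.089 to 0.26. Low sense counts left 160 of 300 members untested on the annotated strand in this comparison.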

Other observations

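The 642 candidates beyond the limit of 300 have fewer antisense counts than the members, and the difference between the sets was not tested. Of 586 tested on the antisense strand between hRescue and hPhf8, 27 were lower and 39 higher, with a median log2 fold change of 0.17, beside 2.87% lower and 17.9% higher over all IDs, and on the sense strand 22 of 188 were higher and 0 lower, beside 9.16% higher and 11.3% lower over all IDs. Among the 298 members with a count in every control library, grip2 (gene21622), which encodes a glutamate receptor interacting protein, varied most, by 16.5 times, and gene10137 by 15.3 times. The antisense level of grip2 was 1.15, 1.04 and 2.87 CPM in hRescue and 54.9, 0 and 18.1 CPM in hPhf8, against 68.7, 4.16 and 33.0 CPM in LacZ and 53.5, 7.74 and 14.2 CPM in CoMo. gene9994, next in this order, had 2.31, 14.7 and 2.57 CPM in LacZ and 2.31, 7.08 and 7.12 CPM in CoMo. The other 2 members had 0 in a control library. gene31683 had 58, 0 and 33 antisense counts in hRescue and 162, 0 and 162 in hPhf8, against 335, 0 and 184 in LacZ and 178, 0 and 279 in CoMo, so that replicate 2 was at 0 in all 4 groups. gene22102 had 0 to 67 counts in 4 of the control libraries and 827 and 246 in replicate 2 of LacZ and CoMo. gene6528, with the partner stkld1, was the member with an antisense share under 10% in hRescue, at 8.83% of its pooled counts against 54.8% in hPhf8, 51.0% in LacZ and 49.8% in CoMo.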
